A study of Mus musculus with 6 samples.

Results

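The proteasome genes are those whose single platform symbol has the stem Psma, Psmb, Psmc, Psmd, Psme, Psmf or Psmg followed by a digit. Matched by symbol alone, they took 106 of the 45137 probe set rows in 2 array tables, 85 of 22626 on the table called array type A here and 21 of 22511 on array type B. These rows were 103 distinct probe sets of 49 genes, and 3 probe sets were present on both array types. By role the genes were 8 alpha subunits, 7 constitutive and 4 inducible or tissue-restricted beta subunits of the core particle, 6 ATPase and 11 non-ATPase subunits of the regulatory particle, 4 genes of activators and an inhibitor, and 7 assembly chaperones. A further 2 genes matched by symbol without encoding a subunit: Psmc3ip, a meiotic recombination factor, and Psme3ip1, a protein that binds the activator subunit Psme3. The activator subunit gene Psme2 is not described, because its probe set carries 2 symbols.

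The RNA came from mouse lumbar spinal cord, segments L3 to L5, at postnatal day 27. Egr3-deficient cords gave pools 1 and 2, and wild type cords gave a single pool, each of 3 cords and each hybridised once to both array types, so 6 arrays stand for 3 pools. The label of pool 1 lacks an acclimatization remark that pool 2 and wild type share. The sources used here give no Egr3 allele, strain or sex. With 1 wild-type pool, its own spread is not measured, and in tissue RNA fewer cells of a type cannot be told apart from less RNA per cell.

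The proteasome degrades proteins tagged with ubiquitin and supplies peptides for MHC class I. Its core particle is a barrel of stacked alpha and beta rings with the proteolytic sites on beta subunits. The regulatory particle caps the barrel, where ATPases unfold the substrate and non-ATPase subunits bind and remove ubiquitin. Egr3 is an activity-induced transcription factor whose loss in mice is known to disrupt muscle spindles and to leave fewer of the gamma (fusimotor) neurons that serve them.

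Promoter windows are shown for the genes that lay furthest below wild type, Psmc6 and Psme4, and for a core subunit and an activator subunit that lay above it, Psmb5 and Psme1. The sequences are from RefSeq, build GRCm38.p6, and run from 250 bases before to 50 bases after the transcription start, read 5′ to 3′ on the gene's strand. Capitals mark matches on either strand to GCGNGGGCG (an EGR motif), TGACNNNGC (the core of the antioxidant response element, bound by the factors Nfe2l1 and Nfe2l2), GAAANNGAA (a core of the interferon-stimulated response element, shortened to these letters) or CCGGAAG (an ETS motif). No 2 matches overlap in these windows.
Psmc6, chr14:45329574-45329873, plus strand: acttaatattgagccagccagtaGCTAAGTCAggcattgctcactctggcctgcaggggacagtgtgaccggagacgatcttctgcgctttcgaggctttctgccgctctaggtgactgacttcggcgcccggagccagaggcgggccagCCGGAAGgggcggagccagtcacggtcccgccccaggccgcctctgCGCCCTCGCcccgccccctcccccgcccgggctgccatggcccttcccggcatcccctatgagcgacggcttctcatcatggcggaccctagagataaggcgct
Psme4, chr11:30771525-30771824, plus strand: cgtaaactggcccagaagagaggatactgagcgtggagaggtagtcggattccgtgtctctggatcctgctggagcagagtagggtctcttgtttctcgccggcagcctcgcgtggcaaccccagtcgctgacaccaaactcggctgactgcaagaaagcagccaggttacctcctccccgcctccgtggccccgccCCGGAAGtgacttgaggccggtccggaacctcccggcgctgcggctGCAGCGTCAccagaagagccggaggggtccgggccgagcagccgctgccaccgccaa
Psmb5, chr14:54617946-54618245, minus strand: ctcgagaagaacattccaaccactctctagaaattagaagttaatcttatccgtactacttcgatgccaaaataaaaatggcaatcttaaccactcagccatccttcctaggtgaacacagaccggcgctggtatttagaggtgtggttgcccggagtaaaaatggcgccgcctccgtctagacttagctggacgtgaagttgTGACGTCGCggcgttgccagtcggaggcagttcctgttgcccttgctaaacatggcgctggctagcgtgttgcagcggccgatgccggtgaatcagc
Psme1, chr14:55578244-55578543, plus strand: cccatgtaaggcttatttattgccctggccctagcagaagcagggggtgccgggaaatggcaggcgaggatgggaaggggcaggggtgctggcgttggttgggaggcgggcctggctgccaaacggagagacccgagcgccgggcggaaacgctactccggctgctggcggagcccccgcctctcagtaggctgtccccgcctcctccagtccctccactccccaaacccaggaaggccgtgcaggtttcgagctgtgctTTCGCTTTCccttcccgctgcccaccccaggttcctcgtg

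Of the 49 genes, 41 had a promoter window. The ETS motif was in 16 of them (39.0%), against 9.93% of all 27025 genes with a window. The interferon motif core was in 7 (17.1%), against 9.76% of all genes. The antioxidant response core was in 6, namely Psmb5, Psmb6, Psmc6, Psmd12, Psmd9 and Psme4, which is 14.6% against 14.0% of all genes. The EGR motif was in Psmc6 and Psmd11, which is 4.88% against 6.27%. A match is a description of these letters and not evidence of binding.

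Egr3 itself read 24.9 in pool 1 and 52.7 in pool 2, against 40.6 in wild type, on array type A, and 210 and 107 against 75.3 on array type B. Neither reading was lower in both Egr3-deficient pools, and the sources used here do not say where the probes lie relative to the deleted part, so these readings check nothing and directions below rest on the labels. Neuronal and glial markers of spinal cord were measured in all pools: the 8 of 11 listed genes on array type A summed to 21003 and 25163 in pools 1 and 2, against 31979 in wild type, and 1 of them, the cholinergic transporter Slc5a7, was under the filter intensity of 36.7 in every pool. On array type B the order was the opposite, with 20888 and 16692 against 15442 over 6 of the listed genes. These sums of deposited readings lean on bright genes and differ from the normalized values. Mbp, the brightest on A, read 8836 and 11730 against 14549, with normalized log2 differences of 0 and -0.11. Nefl, the brightest on B, read 11605 and 10839 against 10019, with normalized log2 differences of -0.66 and -0.40. No listed marker was at 0. Markers of skeletal muscle on array type A summed to 4240 and 5426 against 149 over 10 of 11 genes. In wild type 9 of these 10 were below the filter intensity of 36.7. Liver markers on A summed to 291 and 8056 against 109 over 7 of 8 genes. Dividing the 3′ by the 5′ control probe set on array type A gave, for 18S ribosomal RNA, 2.27 and 1.08 against 0.0493, and for Gapdh 0.858 and 0.975 against 0.734. It gave 1.37 and 1.48 against 1.36 for actin, 1.55 and 2.29 against 1.56 for the transferrin receptor, and 4.202 and 3.80 against 2.42 for pyruvate carboxylase. In the same order, the ratios on array type B were 1.43 and 0.945 against 0.0605, and 0.923 and 0.805 against 0.755. The last 3 controls gave 1.40 and 1.47 against 1.52, 2.57 and 2.54 against 2.11, and 5.82 and 4.02 against 3.85 on B. The part of tissue content and RNA quality in the values below was not tested.

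No proteasome gene passed the test on either array type. Array type A kept 68 of the 85 probe sets, from 44 genes, at or above the 40th percentile of mean signal, and array type B kept 12 of 21, from 9 genes. On A, limma called 0 of the 68 higher and 0 lower at an adjusted p under 0.05, where it called 0.0663% of all 13576 kept probe sets higher and 0% lower. At an unadjusted p under 0.05, 4 members were higher and 5 lower, against 7.93% and 12.7% of all kept probe sets. The lowest adjusted p of a member on A was 0.161.

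On array type A the members leaned slightly above wild type, as did the array as a whole. Both pools exceeded wild type in 37 of the 68 kept probe sets and lay below it in 18, where 47.9% of all kept probe sets were above and 34.8% below. The median log2 difference of the members was 0.16 (pool 1 alone 0.19, pool 2 alone 0.074), beside 0.11 (0.16 and 0.061) over all kept probe sets. At least 2-fold, 0 members were above in both pools (1.2% of all kept probe sets) and 4 were below (4.35% of all). Those 4 probe sets belong to Psmc6 and Psme4. With no filter, both pools exceeded wild type in 42 of the 85 probe sets as deposited and lay below it in 24, against 38.9% and 38.8% of all probe sets. The median SD between the 2 Egr3-deficient pools was 0.16 for members and 0.19 for all kept probe sets. The gap between the 2 pools exceeded the log2 difference from wild type in 22 of the 68 (32.4%), beside 34.0% of all kept probe sets.

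**Figure D1:**
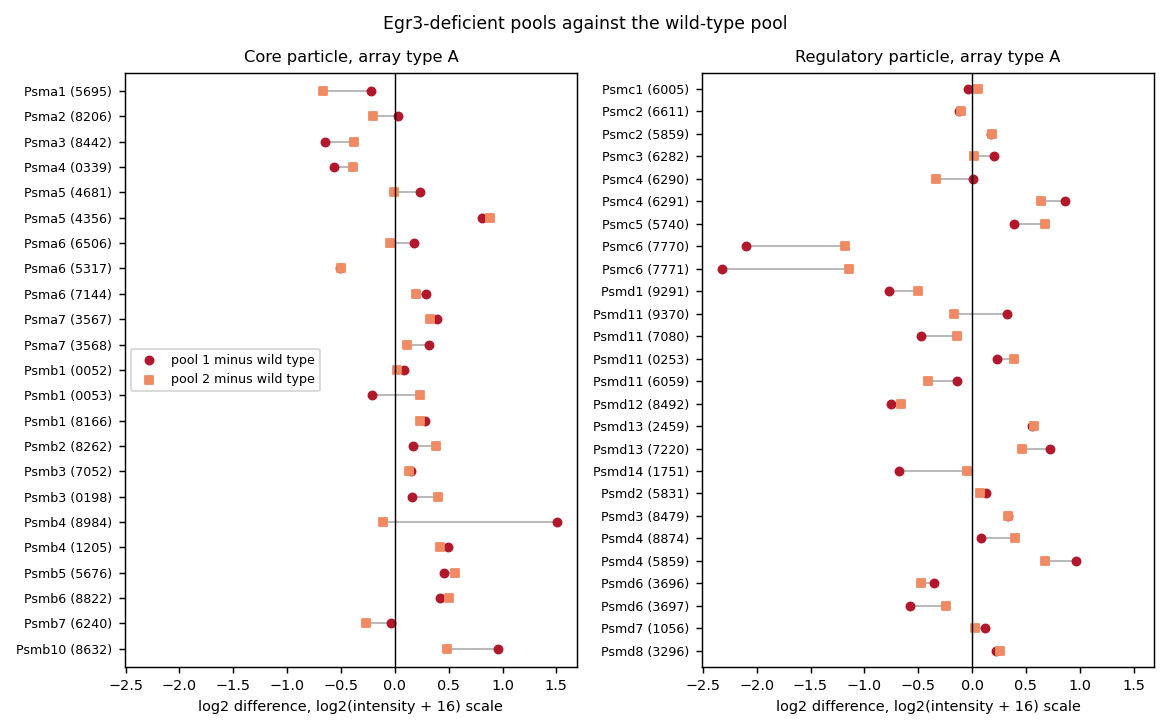
Log2 difference from wild type of pool 1 (circles) and pool 2 (squares) for the 23 core particle and 26 regulatory particle probe sets kept on array type A, on the log2(intensity + 16) scale. Bracketed digits are the end of the probe set number, and a line joins the 2 pools. The 2 Psmc6 probe sets lie furthest left, and the beta subunits lie mostly right of 0.

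The core particle had a median log2 difference of 0.21 over 23 kept probe sets (pool 1 alone 0.18, pool 2 alone 0.13). Both pools were higher in 13 of these (56.5%) and lower in 5 (21.7%). Over all kept probe sets on array type A these shares were 47.9% and 34.8%, and the median was 0.11. Of the core classes with several probe sets, constitutive beta subunits had the higher median. Their 11 probe sets had a median of 0.27, with 8 higher in both pools and 1 lower. The 11 alpha subunit probe sets had a median of 0.065, with 4 above and 4 below. No test of one class against the other was made.

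Among constitutive beta subunits, Psmb5, which carries the chymotrypsin-like site, read 1132 in pool 1 and 1127 in pool 2, against 755 in wild type (log2 difference 0.51, SE 0.24, limma adjusted p = 0.274). Psmb6, with the caspase-like site, read 1034 and 1020 against 714 (0.46, SE 0.25). Psmb7, with the trypsin-like site, read 3280 and 2804 against 3058 (-0.15, SE 0.19). For Psmb5 and Psmb6 both Egr3-deficient pools lay above wild type, while for Psmb7 the deposited wild-type value lay between them and both normalized differences were below 0. Psmb4, a structural beta subunit, had 2 kept probe sets that did not match pool by pool, though both log2 differences were above 0 (0.46 and 0.69). One read 2261 and 2041 against 1388, with both pools above wild type. The other, whose suffix x_at marks possible cross-hybridisation, read 1194 and 352 against 388, so pool 1 alone stood apart.

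Alpha subunits form the outer rings that gate the barrel, and they ran both ways. Psma5 had the largest difference of the core, in a probe set that read 1081 and 1058 in pools 1 and 2 against 563 in wild type (log2 difference 0.85, SE 0.25, limma adjusted p = 0.167). Its other kept probe set read 585 and 470 against 480, where wild type lay between the pools. Psma4 read 561 and 617 against 799 (-0.48, SE 0.27), so both Egr3-deficient pools were below wild type. Psma3 read 975 and 1103 against 1345 on array type A, and another probe set of it read 123 and 126 against 180 on array type B, both pools being lower each time. Psma7 read 777 and 704 against 558. Among the 3 kept probe sets of Psma6 the log2 differences ran from -0.50 to 0.24.

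The inducible beta subunits take the places of the catalytic ones after interferon gamma and change which peptides are made. Psmb10, which replaces Psmb7, read 354 in pool 1 and 250 in pool 2, against 181 in wild type (log2 difference 0.72, SE 0.34, limma adjusted p = 0.270). Psmb8, which replaces Psmb5, read 31.1 and 36.4 against 16.03, and Psmb9, which replaces Psmb6, read 29.4 and 27.9 against 18.5. Both pools were above wild type for each of the 3, but all readings of Psmb8 and Psmb9 were under the filter intensity of 36.7 and were not tested. A second Psmb8 probe set on array type B read 3.93 and 28.1 against 3.58, all dim. Psma8, an alpha subunit gene known from testis, and Psmb11, known from thymus, were also under the filter. In the RefSeq gene order Psmb9 and Psmb8 lie on either side of Tap1, with Tap2 next.

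The regulatory particle had a median log2 difference of 0.078 over 26 kept probe sets on array type A (pool 1 alone 0.10, pool 2 alone 0.025). Both pools were higher in 13 of these (50%) and lower in 10 (38.5%), against 47.9% and 34.8% of all kept probe sets, whose median was 0.11. The 9 ATPase probe sets had a median of 0.0089, with 4 above and 3 below, and the 17 non-ATPase probe sets a median of 0.080, with 9 above and 7 below. Single subunits thus lay on both sides of wild type, as the plot of the 2 particles shows.

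Psmc6, an ATPase of the ring that drives substrates into the core, lay furthest below wild type. One probe set read 117 in pool 1 and 296 in pool 2, against 669 in wild type, a log2 difference of -1.73 (SE 0.48, limma adjusted p = 0.161). A second one, of suffix s_at (probes shared between transcripts), read 41.4 and 103 against 254, a log2 difference of -1.64 (SE 0.43, adjusted p = 0.161 by limma). Both probe sets gave the order pool 1, pool 2, wild type from low to high, and in the first the log2 differences were -2.32 in pool 1 and -1.14 in pool 2. Over all kept probe sets the 10th percentile was also lower in pool 1 (-1.12) than in pool 2 (-0.76). The remaining Psmc6 probe set read 2.81 and 8.77 against 25.9, under the filter. Both kept Psmc6 probe sets passed when arrays were centred on their medians in place of quantile normalization (adjusted p = 0.00675 and 0.00382 by limma). That setting called 597 of all 13576 kept probe sets lower. With no filter the adjusted p by limma was 0.336 for both.

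The other ATPases did not follow Psmc6. Psmc5 read 1267 and 1473 against 868 (log2 difference 0.54, SE 0.25). Psmc4 had a probe set at 622 and 512 against 327 (0.75, SE 0.29, limma adjusted p = 0.209), and another at 638 and 480 against 609, where wild type lay between the pools. Kept probe sets of Psmc1, Psmc2 and Psmc3 had log2 differences from -0.11 to 0.18 on array type A, and on B a Psmc2 probe set read 80.0 and 119 against 138 (-0.30, SE 0.51). The ATPases assemble as a ring with 1 copy of each, but no measure of the assembled ring is in these data.

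Among non-ATPase subunits, Psmd4, a ubiquitin receptor, had a probe set at 804 in pool 1 and 624 in pool 2, against 390 in wild type (log2 difference 0.82, SE 0.28, limma adjusted p = 0.190), and another at 929 and 1082 against 809. Both lay above wild type in both pools. Psmd13, a lid subunit, read 438 and 434 against 292, and its second kept probe set (suffix x_at) 275 and 230 against 169. The Egr3-deficient pools were higher in both. On array type B the 2 kept Psmd13 probe sets read 170 and 98.0 against 88.4 and 114 and 108 against 115. Psmd12, another lid subunit, read 349 and 369 against 589 (-0.71, SE 0.28, adjusted p = 0.224 by limma), and Psmd1, a large scaffold subunit, read 353 and 426 against 604 (-0.64, SE 0.29). Both pools were below wild type for each of these, as they were for both probe sets of Psmd6. Psmd14, the deubiquitinase of the lid, read 508 and 769 against 789, with pool 2 close to wild type. Psmd11 had 4 kept probe sets, whose log2 differences ran from -0.31 to 0.31.

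**Figure D2:**
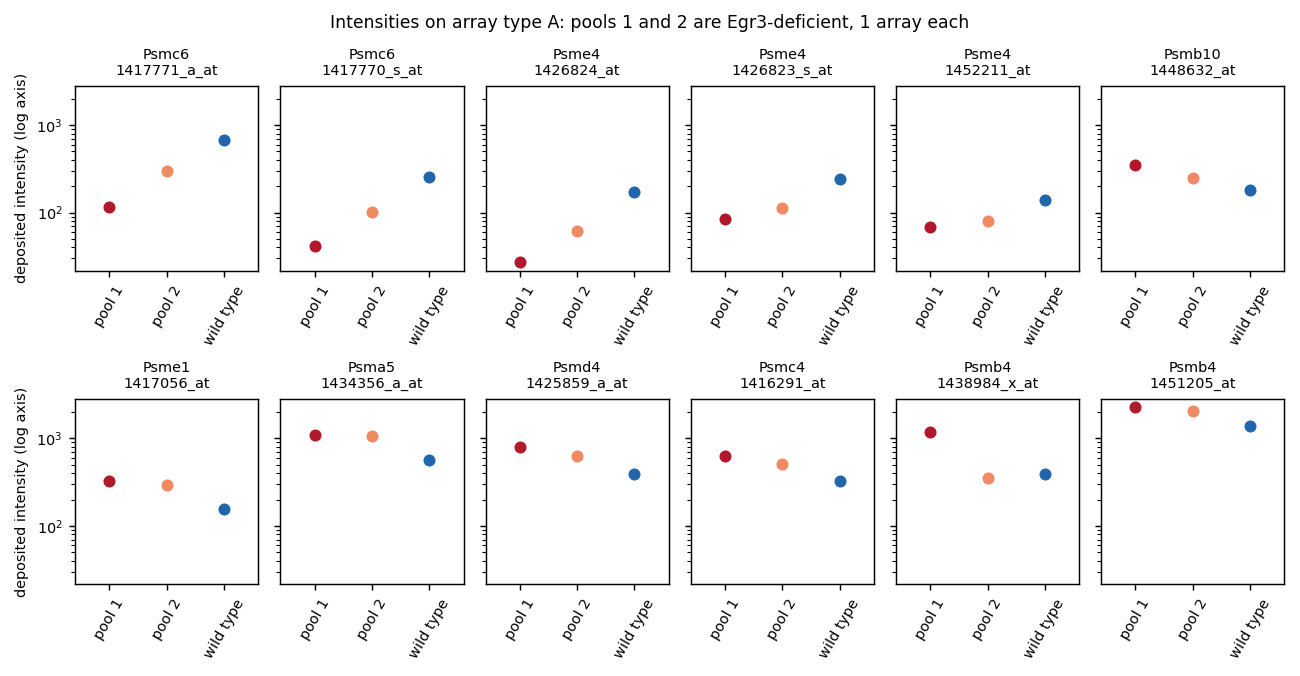
Deposited intensity on array type A, log axis, of 12 named probe sets in the 2 Egr3-deficient pools and the wild-type pool, 1 array each. Psmc6 and Psme4 read lowest in pool 1 and highest in wild type, while the x_at probe set of Psmb4 stands apart in pool 1 alone.

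Activators that dock on the core in place of the regulatory particle gave the widest range. Psme4, an activator that has been tied to histone degradation, had 3 kept probe sets on array type A, all below wild type in both pools. The first read 27.01 in pool 1 and 61.0 in pool 2, against 173 in wild type (log2 difference -1.63, SE 0.39, limma adjusted p = 0.161), the second (suffix s_at) read 84.3 and 112 against 244 (-1.14, SE 0.33), and the last read 68.0 and 79.5 against 140 (-0.70, SE 0.32). All 3 were lowest in pool 1, where the 10th percentile over all kept probe sets was also the lower (-1.12, against -0.76 in pool 2). On array type B the 2 kept Psme4 probe sets were not below in both pools: one read 48.0 and 73.3 against 57.0, and the other 72.4 and 127 against 97.7, close to the filter intensity of 55.9 there. With median centring the first of the 3 on A passed (adjusted p = 0.00243 by limma). That setting called 597 of all 13576 kept probe sets lower. With no filter the adjusted p of this probe set by limma was 0.336.

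Psme1, a subunit of the activator induced by interferon gamma, read 328 and 297 in pools 1 and 2 against 157 in wild type (log2 difference 0.99, SE 0.31, limma adjusted p = 0.173). Both Egr3-deficient pools were close to each other and above wild type. Psme3, the nuclear relative of Psme1, read 121 and 88.5 against 62.9 in one probe set and 240 and 242 against 214 in another. Psmf1, the inhibitor of the core, had 3 kept probe sets with log2 differences from 0.14 to 0.52.

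Assembly chaperones help the rings to form and leave the finished particle. Their 9 kept probe sets on array type A, from 7 genes, had a median log2 difference of 0.31 (pool 1 alone 0.26, pool 2 alone 0.071). Both pools were higher in 5 of these and lower in 0, against 47.9% and 34.8% of all kept probe sets, whose median was 0.11. Psmg1, which pairs alpha subunits, read 269 and 283 against 190 (0.56, SE 0.31). Psmd9, a chaperone of the ATPase ring, read 125 and 153 against 112 in its brighter probe set on A. A Psmd9 probe set on B, dropped by the filter, read 9.55 and 14.9 against 86.8. The 2 kept probe sets of Psmg2, the partner of Psmg1, did not match: 1 read 207 and 103 against 182, and the other 142 and 91.7 against 91.2. Psme3ip1, which is no subunit, read 299 and 329 against 238 on A, and Psmc3ip 124 and 55.3 against 47.6 on B.

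**Figure D3:**
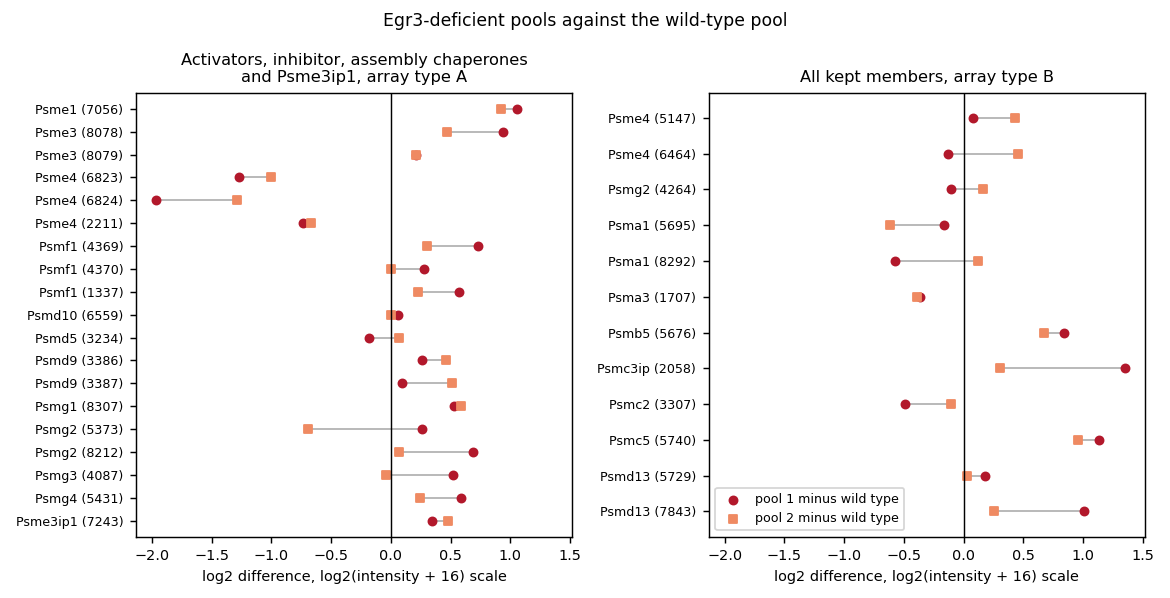
Log2 difference from wild type of pool 1 (circles) and pool 2 (squares), on the log2(intensity + 16) scale, for the remaining 19 members kept on array type A (left) and the 12 kept on array type B (right). Psme4 lies left of 0 in all 3 probe sets on A but not on B, and Psmc5 and Psmb5 lie right of 0 on B.

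Array type B carried few proteasome probe sets. Of 12 kept, limma called 0 higher and 0 lower, where 1.02% and 0.607% of all 13507 kept probe sets were called higher and lower. At an unadjusted p under 0.05, 2 were higher and 0 lower, against 7.4% and 6.83%. Both pools exceeded wild type in 6 and lay below it in 3, against 38.9% and 36.6%, and at least 2-fold in both pools 0 were above and 0 below, against 4.27% and 1.8%. Unfiltered, 7 of the 21 as deposited were above in both pools and 7 below, against 32.1% and 41.2% of all probe sets. The filter dropped a Psmd11 probe set at 17.2 and 11.1 against 121, and a Psmd9 probe set at 9.55 and 14.9 against 86.8. In both, only the wild-type reading was above the filter intensity of 55.9. The median log2 difference of the 12 was 0.13 (pool 1 alone -0.013, pool 2 alone 0.21). The core particle had 4 kept probe sets there (median -0.30) and the regulatory particle 4 (median 0.37). The regulatory median was 0.14 without pool 1 and 0.59 without pool 2, and the core median was -0.14 without pool 1.

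The 3 members that both arrays carry were read again from the same pools, so they repeat the pools and not the animals. Psmc5 read 6745 in pool 1 and 4439 in pool 2, against 2024 in wild type, on array type B (log2 difference 1.05, SE 0.30, limma adjusted p = 0.0590), where it differed by 0.54 on A. By limma it passed on B at a pseudocount of 64 (adjusted p = 0.0236) and with a stricter filter, at percentile 60 (adjusted p = 0.0117). Those settings called 168 and 180 of all kept probe sets on B higher. Psmc5 passed on B under no other alternative. There its adjusted p by limma was 0.0724 with a robust prior, 0.442 without quantile normalization, 0.493 with an untrended prior and 0.546 with no filter. Psmb5 read 5578 and 3857 against 2060 on B (0.76, SE 0.31), beside 0.51 on A. Psma1, an alpha subunit, read 1947 and 1188 against 1609 on B and 421 and 301 against 487 on A, with log2 differences of -0.39 and -0.45. Each of the 3 thus had the same sign on both arrays, as did 84 of all 100 probe sets that were kept on both. When array type B was instead scaled on those 100 probe sets, the median of all its kept probe sets moved to -0.66 and that of the members to -0.60.

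Several probe sets of a gene mostly pointed one way. On array type A 18 member genes had more than 1 kept probe set, and in 13 of them (72.2%) all log2 differences had the same sign, beside 73.6% of all 2909 such genes. The exceptions were Psma6, Psmc2, Psmc4, Psmd11 and Psmg2. Counting each gene once by the median of its kept probe sets, 31 of 44 genes (70.5%) were above wild type and 13 below, beside 61.9% above over all 8251 genes counted the same way. No test of that difference was made.

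Partners of the proteasome were listed beside its subunits. Of 25, 17 were kept on array type A and 0 passed limma. Each partner gene was read by its probe set of highest mean signal. At an unadjusted p under 0.05, 0 of the 17 were higher and 3 lower, against 722 and 885 of all 8251 genes read that way. Both pools were higher in 3 (17.6%, against 52.1% of those genes) and lower in 7 (41.2%, against 31.1%). The other 7 had a pool on each side of wild type, and the median log2 difference was -0.099, beside 0.17 over those genes. On array type B 5 were kept, with 1 higher in both pools, 2 lower and a median of 0.0054. Over all genes read that way on B, 45.5% were higher in both pools, 32.4% lower, and the median was 0.10. Ecpas, which clamps the core to the regulatory particle, read 20.3 and 50.7 in pools 1 and 2 against 148 in wild type on A (log2 difference -1.65, SE 0.40, limma adjusted p = 0.161), and 153 and 260 against 417 on B. Usp14, a deubiquitinase of the regulatory particle, read 208 and 214 against 421 on A and 204 and 289 against 408 on B. Both genes were thus below wild type in both pools on both array types. Nfe2l1, the factor known to induce proteasome genes when activity drops, read 407 and 390 against 394, a log2 difference of 0.021. Pomp, the core maturation factor, read 1041 and 1240 against 1124.

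Interferon and MHC class I genes were listed beside the inducible subunits. Of 14, 9 were kept on array type A and 0 passed limma. Each was again read by its probe set of highest mean signal. At an unadjusted p under 0.05, 5 were higher and 0 lower, against 722 and 885 of all 8251 genes read that way. Both pools were higher in 7 and lower in 1, against 52.1% and 31.1% of those genes. The median log2 difference was 0.79, beside 0.17 over those genes. H2-K1, an MHC class I heavy chain, read 432 and 608 in pools 1 and 2 against 195 in wild type (log2 difference 1.37, SE 0.33, limma adjusted p = 0.161). H2-D1, another heavy chain, read 615 and 774 against 345. Both of these probe sets have the suffix x_at, which marks possible cross-hybridisation, so the 2 readings may not be separate. Tap1, the peptide transporter gene between Psmb8 and Psmb9, read 33.7 and 56.1 against 44.2, and Ifit3, an interferon target, read 50.6 and 48.6 against 61.3. Microglia markers, which mark cells known to express inducible subunits, summed to 3149 and 2983 against 2443 over 10 genes. Of 9 kept, both pools were higher in 7 and lower in 2, against the same 52.1% and 31.1%. Among these markers, P2ry12 read 42.5 and 70.8 against 157, while Tmem119 went the other way, at 136 and 104 against 63.4. The part of microglia in the inducible subunits was not tested.

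**Figure D4:**
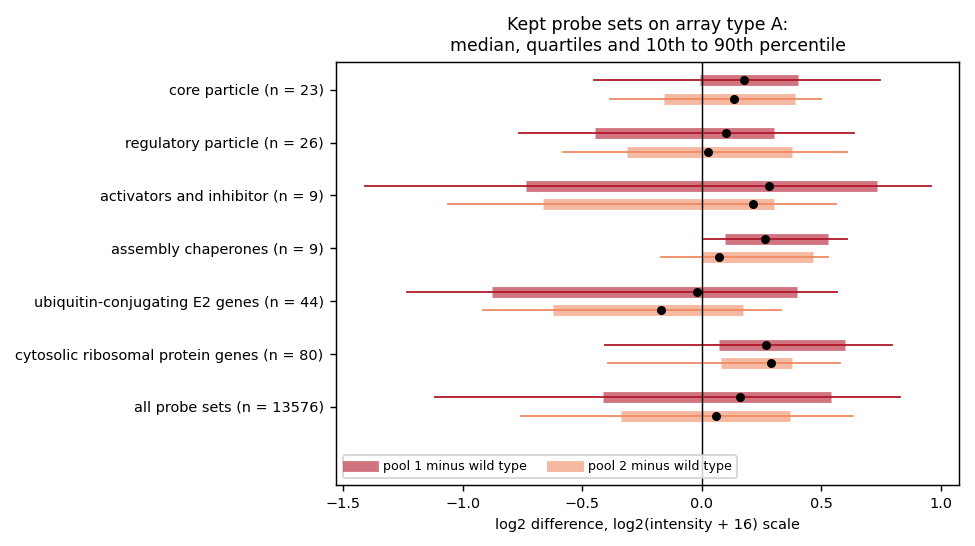
Median (dot), quartiles (thick bar) and the range between the outer deciles (thin line) of the log2 difference from wild type in pool 1 and pool 2, for kept probe sets on array type A. Medians of the core particle lie at 0.18 and 0.13 and those of all probe sets at 0.16 and 0.061, and the ranges overlap widely.

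Beside 2 related gene groups, the proteasome median of 0.16 lay between them. The 80 kept probe sets of cytosolic ribosomal protein genes had a median log2 difference of 0.27 on array type A, and the 44 of ubiquitin-conjugating E2 genes, which hand ubiquitin to substrates, one of -0.020. By limma 0 of either group passed on A. At an unadjusted p under 0.05, 15 ribosomal probe sets were higher and 4 lower, and 2 E2 probe sets were higher and 11 lower, against 7.93% and 12.7% of all kept probe sets. Ribosomal medians were 0.27 and 0.29 in pools 1 and 2 and E2 medians -0.019 and -0.17, and no test of these groups against each other was made.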

How the data were processed

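Per array, the authors' deposited intensity of a probe set is on a linear scale. Trimming 2% of the values at both ends left deposited means between 150.02 and 150.06. The sources used here name no summarising program. Control probe sets (64 per array type) were left out. Each array type was analysed alone: log2(intensity + 16), quantile normalization over the 3 arrays, a filter at the 40th percentile of mean log2 value, then limma 3.58.1 in R 4.3.3 (lmFit, eBayes with an intensity trend) across all kept probe sets with Benjamini-Hochberg adjustment and a threshold of 0.05. The fit set 2 pools against 1, with 1 residual degree of freedom, so the lone wild-type pool is assumed to vary like the others. To that 1 degree, limma added 6.54 prior degrees of freedom on array type A and 52.3 on B. SEs and p-values thus measure only the spread between the 2 Egr3-deficient pools. Most of that estimate is taken from all kept probe sets of similar signal, not from the single probe set. Differences on this scale understate changes of dim genes. The number of arrays limits the precision.

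Members and gene lists were chosen with earlier results of these data known. Named genes were, per class and array type, those past the threshold and the 2 furthest above and 2 furthest below wild type in both pools, with Psmb5 to Psmb10 and Psme1 always. Other members named were chosen after their values were seen, to show genes whose probe sets differ and to complete a class. The alternatives changed the normalization (none, or median centring), the pseudocount (1 or 64), the filter (none, or percentile 60), the prior (untrended, or robust), the adjustment (both array types as one), the pools (either Egr3-deficient one left out) and the probe sets (1 per gene). Scaling on the 100 probe sets of both array types and leaving out probe sets with the suffix x_at or s_at were added after seeing the data. Promoter windows and gene order came from RefSeq tables of build GRCm38.p6.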

Additional observations from a re-analysis of the deposited data

How the results depend on the processing

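The count of members past the threshold on array type A was 0 higher and 0 lower under every alternative run, except 3 lower under median centring, which called 597 probe sets lower and 227 higher in all. On array type B it was 0 except for 1 higher (Psmc5) at a pseudocount of 64 or a filter at percentile 60. With 1 pool left out there is no residual degree of freedom, so those settings gave values with no test. Median centring moved the median log2 difference on A to 0.30 for all members, 0.36 for the core and 0.18 for the regulatory particle, while the median of all kept probe sets went to 0.17. The core median on A was 0.18 with no filter, 0.25 at the 60th percentile and 0.26 with 1 probe set per gene. Leaving out pool 1 or pool 2 gave 0.074 to 0.19 for all members and 0.13 to 0.18 for the core on A, and on B -0.26 to -0.14 for the core and 0.14 to 0.59 for the regulatory particle. On B the median of all members was -0.028 without quantile normalization and -0.60 on shared scaling, that of the core -0.073 under median centring, 0.15 with no filter and -0.82 on shared scaling, and that of the regulatory particle -0.36 on shared scaling. Of 380 values of 32 named probe sets, 374 kept their sign. The other 6 were Psmb7 (0.11) on A and Psma1 (0.090) on B under median centring, Psmd13 on B without quantile normalization (-0.041), and Psme4 (-0.53) and Psmd13 (-0.62 and -0.097) on B on shared scaling. The cause was not tested. Probe sets near the filter intensities of 36.7 on A and 55.9 on B are the least certain. No paired analysis was possible because wild type has 1 pool.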
